A study of Danio rerio with 15 samples.

Results

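The transcripts described here are those annotated with a single exon on zebrafish chromosomes 1 to 25, without the rows of chromosome 4 that start at or beyond position 28000000 (Zv9). They were chosen by annotation alone, from the exon coordinates deposited beside the counts, and there were 2520 of them among the 30279 transcripts of each table (8.32%). By length, 1478 were under 450 bp, 710 were 450 to 1500 bp and 332 were over 1500 bp. Outside this rule, 845 transcripts with 1 exon lay on the excluded part of chromosome 4 and 13 on the mitochondrial genome.

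Most vertebrate messenger RNAs are spliced, so a transcript with 1 exon is an unusual class of annotation. Among protein-coding genes it is known for replication-dependent histones and many G protein-coupled receptors, among them odorant receptors. Short single-exon annotations are largely small non-coding RNAs, such as spliceosomal RNAs, small nucleolar RNAs (often encoded in introns of a host gene), microRNA precursors and 5S ribosomal RNA. Many of these and the replication-dependent histone messages lack a poly(A) tail, and the libraries were primed with oligo(dT). The tables give no gene name or biotype, so which of these classes a given identifier belongs to is not stated here.

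The samples were cells sorted by fluorescence, namely radial glia (RGs), the neural stem cells of the fish brain, and, in adults, also proliferating neural progenitors. Larval RGs came from heads without eyes at 7 dpf, as gfap:egfp-positive cells of notch3-/- larvae (allele fh332, a null allele of the Notch3 receptor) or of notch3+/+ larvae, with 3 libraries of 15 heads each per genotype. Adult cells came from telencephali of 3-month-old wild-type her4:drfp;mcm5:egfp fish (3 experiments of 20 telencephali each), as RFP-positive quiescent RGs (qRGs, 3 libraries) or as activated RGs and activated neural progenitors (6 libraries). Those 6 were pooled as "activated", since the names of their columns do not settle which are which. In the larvae, the reporter marks every cell with an active gfap promoter, and both genotypes carried it. All 4 groups are pools of fish, and the labelled cell types and the level of notch3 could not be checked because no identifier is paired with a gene name.

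Counted reads numbered 17776468 to 37653792 per larval library and 19555038 to 66966289 per adult library. The 3 activated libraries with under 40000000 reads stood apart from the other 3. They are the columns named activatedNPC 3, proliferative 1 and proliferative 3, so this split cuts across both column names, and whether names were exchanged between columns cannot be told from the labels. Correlations of log2 CPM (counts per 1000000 counted reads) were 0.927 to 0.963 among them and 0.913 to 0.959 among the deeper 3, but 0.824 to 0.925 between the sets. Despite their lower depth, they had reads on more transcripts (29361 to 29424, against 26487 to 27819 in the deeper 3). Their TMM scaling factors were 1.44 to 1.97, against 0.68 to 0.75 in the deeper activated libraries and 0.71 to 0.92 in the qRG libraries. What set them apart was not tested, and the main adult results below are also given with each set of 3 alone.

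Single-exon transcripts were short. Their median length was 254 bp (range 10 to 12696 bp), against 1716 bp for the 25966 multi-exon transcripts of the same regions. Within the shortest class the median was 109 bp, against 356 bp for the 1188 multi-exon transcripts under 450 bp. The other classes were closer, with medians of 987 bp against 960 bp at 450 to 1500 bp and 2188 bp against 2564 bp above 1500 bp. The single-exon transcripts nearest to the limits between classes had 447 and 453 bp and 1497 and 1502 bp. Within 10 bp of a limit lay 8 of them at 450 bp and 7 at 1500 bp.

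Many of these lengths recurred exactly. A length of 116 bp was shared by 141 single-exon transcripts, 135 of them on chromosome 5, and 107 bp by 81, with 52 on chromosome 8. A length of 295 bp was shared by 51, of which 50 lay on chromosome 11. Transcripts of equal length lying side by side may be near-identical copies. The authors kept only uniquely aligned reads, so copies that share sequence lose reads and their levels are uncertain. The share lost was not measured here.

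Reads reached most single-exon transcripts in at least 1 library, but in each library a smaller share of them than of multi-exon transcripts. Over all 15 libraries, 147 of the 2520 (5.83%) had no read, against 0.535% of the multi-exon transcripts, and 131 of these 147 were under 450 bp. For that shortest class, the share of transcripts with a read was 23.8%, 36.9% and 35.7% in notch3-/- replicates 1, 2 and 3, and 24.5%, 25.03% and 38.0% in notch3+/+ replicates 1, 2 and 3. It was 49.3%, 58.5% and 57.0% in the 3 qRG libraries. At the depth each library had, the shares in adult libraries were all above those in larval ones. Among activated libraries the share was 41.1% to 54.9% in the deeper 3, and 82.0% to 82.9% in the 3 shallower ones, which thus had a read on more of these short transcripts than any other library.

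**Figure D1:**
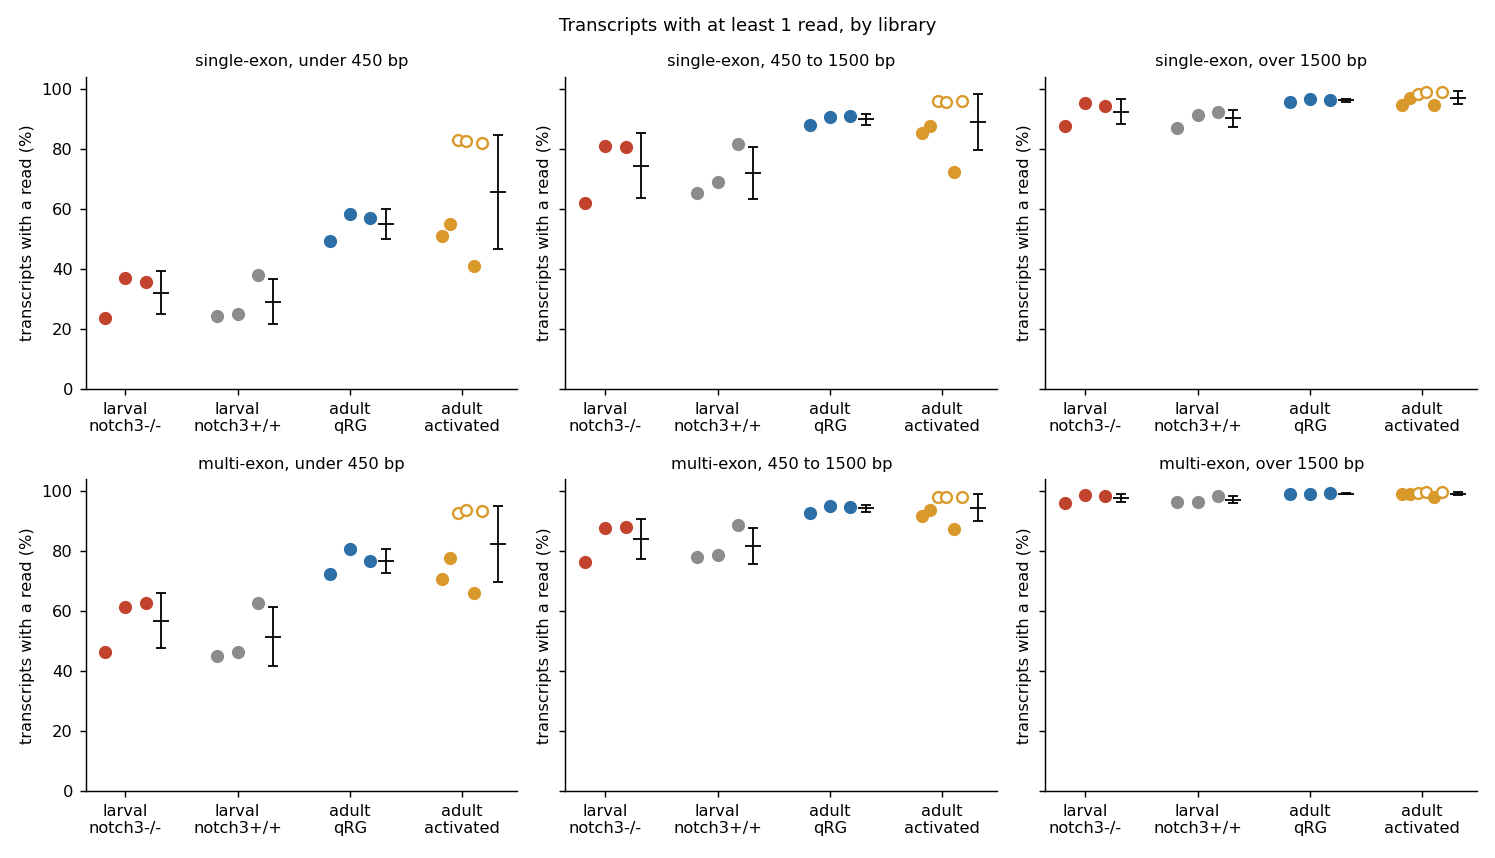
Share of transcripts with at least 1 read (y axis, %) in each of the 15 libraries, by length class, for single-exon (top row) and multi-exon transcripts (bottom row). Points are libraries, bars the mean and SD of a group, and open points the 3 activated libraries with under 40000000 counted reads, which reach 82.0% to 82.9% of the single-exon transcripts under 450 bp.

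The difference from multi-exon transcripts held in each class. The share with a read was lower for single-exon transcripts in 15 of 15 libraries. The mean difference (single-exon minus multi-exon) was −20.5 ± 5.36 percentage points under 450 bp, −7.06 ± 4.25 points at 450 to 1500 bp and −3.92 ± 2.62 points above 1500 bp (SD, n = 15 libraries). The exact two-sided sign-flip test over libraries gave p = 6.1e-05 in each class, the smallest it can give (7.3e-05 after Benjamini-Hochberg adjustment over 6 tests). It takes the 15 libraries as independent, although the 9 adult ones came from 3 experiments. Larval libraries of the same replicate number also correlated in their deviations from genotype means (0.23 to 0.32). All libraries score the same transcripts, so this p does not measure the spread among transcripts. Length differs most within the shortest class, so that part of the difference is not separate from length. When the chance of a read was computed for a common depth of 17000000 reads, the shortest class had a read on 77.4% to 81.7% of its members in the shallower activated libraries, and on 31.3% to 39.5% in the deeper ones. The same values were 38.8% to 47.8% in qRG libraries, 21.3% to 35.6% in notch3-/- libraries and 22.2% to 37.8% in notch3+/+ libraries. At this common number of reads the shallower activated libraries were again the highest, and the qRG libraries stayed above all larval ones. The deeper activated libraries overlapped the larval ones, so at this depth adult libraries were no longer all above larval ones. The counting had no option to join read pairs, and counts on single-exon transcripts under 450 bp were even numbers more often in larval libraries (71.4% to 76.4%) than in adult ones (48.9% to 54.6%). The same number of reads therefore need not be the same number of fragments in the 2 tables.

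Levels per length (CPM per kb, averaged over the libraries of a group) showed the same order. The median single-exon transcript under 450 bp had 0.108 CPM per kb in notch3-/- RGs and 0.051 in notch3+/+ RGs, where 47.7% and 49.9% of this class had no read in the group at all. It had 0.353 CPM per kb in qRGs, 0.159 in the deeper activated libraries and 2.53 in the shallower ones. Medians for multi-exon transcripts of this class were 0.439, 0.354, 0.644, 0.368 and 3.54 CPM per kb in the same 5 sets. Single-exon transcripts had the lower median in each of these sets.

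At 450 to 1500 bp the median single-exon transcript had 0.478 CPM per kb in notch3-/- RGs, 0.473 in notch3+/+ RGs, 0.590 in qRGs, 0.247 in the deeper activated libraries and 3.26 in the shallower ones. Above 1500 bp the medians were 1.70, 1.41, 1.43, 0.865 and 3.90 CPM per kb in these sets. Longer classes thus had higher levels, and single-exon transcripts remained below multi-exon ones of their class. Per library, the median was lower for single-exon transcripts in 15 of 15 libraries at 450 to 1500 bp (mean difference −0.662 ± 0.242 CPM per kb, SD) and above 1500 bp (differences of −2.45 to −1.57 CPM per kb), with p = 6.1e-05 in the exact sign-flip test for each. Under 450 bp it was lower in 12 of 15 libraries, with a mean difference of −0.440 ± 0.456 CPM per kb (SD, exact sign-flip p = 0.00049), and in no library higher. This class is near the floor. Per library, its single-exon median was 0 in all larval libraries, qRG replicate 1 and proliferative 2. Both medians were 0 in notch3-/- replicate 1 and notch3+/+ replicates 1 and 2. The largest differences were in the shallower activated libraries (medians of 1.70 to 2.99 against 2.38 to 4.68 CPM per kb).

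**Figure D2:**
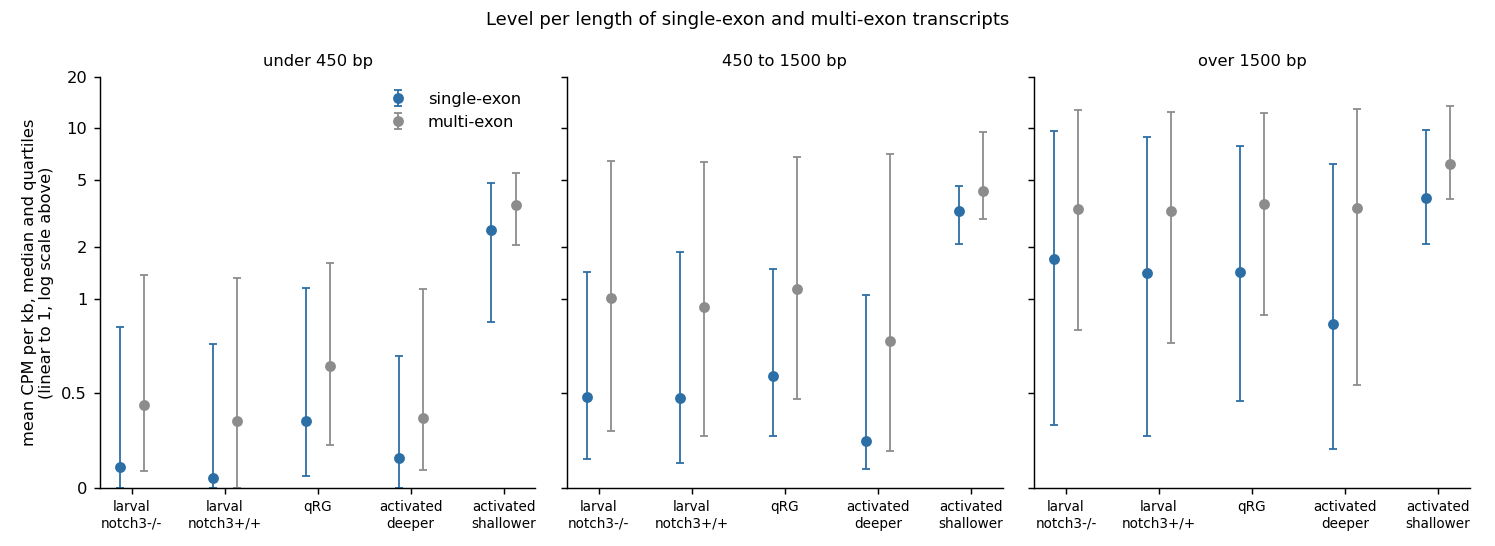
Level per length (y axis, mean CPM per kb of a group, linear to 1 and logarithmic above) of single-exon (blue) and multi-exon (grey) transcripts in 3 length classes. Points are medians over transcripts and bars reach to the quartiles. The shallower activated libraries lie above the other sets in each class, with single-exon medians of 2.53, 3.26 and 3.90 CPM per kb.

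The 3 shallower activated libraries had higher levels in each class. Over all single-exon transcripts, the median difference between the shallower and the deeper activated libraries was 2.06 CPM per kb, with 1.85 under 450 bp, 2.52 at 450 to 1500 bp and 1.81 above 1500 bp. Over multi-exon transcripts it was 2.33 CPM per kb (2.28 to 2.65 by class). Of the single-exon transcripts, 843 had under 0.1 CPM per kb in the deeper activated libraries. These had a median of 0.916 CPM per kb in the shallower ones (quartiles 0.132 and 2.36) and of 0.093 in qRG libraries. They were chosen as low in the deeper libraries, which favours a higher level elsewhere. The 2252 multi-exon transcripts under the same limit had medians of 1.15 CPM per kb in the shallower and 0.158 in the qRG libraries. What gave rise to the reads of the shallower libraries on such transcripts was not tested.

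Few single-exon transcripts were abundant. A level of at least 1 CPM in every library of a group was reached by 372 in notch3-/- RGs (14.8%), 369 in notch3+/+ RGs (14.6%), 410 in qRGs (16.3%) and 340 in activated cells (13.5%). Of multi-exon transcripts, 55.9% to 63.4% reached it. This limit is not corrected for length, and multi-exon transcripts are longer. In the 4 groups it was reached by 2.30% to 3.59% of single-exon and 9.26% to 12.2% of multi-exon transcripts under 450 bp. At 450 to 1500 bp the shares were 18.6% to 22.7% and 37.1% to 41.5%, and above 1500 bp 49.7% to 59.0% and 71.9% to 81.9%. In the shallower activated libraries alone, 940 single-exon transcripts had 1 CPM or more in each library (37.3%), and in the deeper ones 350 (13.9%). Reads were concentrated on a few members. The 10 most abundant held 48.6% of all single-exon reads in notch3-/- RGs, 48.8% in notch3+/+ RGs, 45.7% in qRGs and 36.7% in activated cells (39.8% in the deeper and 37.0% in the shallower 3). The 10 most abundant multi-exon transcripts held 4.52% to 8.26% of multi-exon reads, but out of 25966 transcripts instead of 2520, which lowers their share. Under 450 bp, where the sets are of like size (1478 and 1188), the order was the opposite. There the 10 most abundant held 20.9% to 36.0% of single-exon reads and 58.3% to 74.2% of multi-exon reads in the 4 groups.

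Single-exon transcripts took up a near-constant share of the reads. The share was 2.75%, 2.81% and 2.94% in notch3-/- replicates 1, 2 and 3, and 2.92%, 2.56% and 2.85% in notch3+/+ replicates 1, 2 and 3. The values of the genotypes overlapped. It was 3.23%, 2.81% and 2.88% in qRG replicates 1, 2 and 3, and 2.59% to 3.08% in the 6 activated libraries (median 2.95%), again with overlap. Nearly all of these reads fell on the longer classes, and the 1478 transcripts under 450 bp held 0.030% to 0.120% of a library.

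No difference in this share was detected between the genotypes. The mean was 2.83 ± 0.094% in notch3-/- RGs and 2.78 ± 0.193% in notch3+/+ RGs (SD, n = 3 each; exact permutation test, two-sided, p = 0.80, where 0.10 is the smallest p possible). Within replicate numbers, the difference (notch3-/- minus notch3+/+) was −0.169, 0.249 and 0.087 percentage points, and its mean of 0.055 ± 0.211 points (SD, n = 3 pairs) gave p = 0.75 in an exact sign-flip test that cannot go below 0.25. By class, the means were 0.0372% and 0.0376% under 450 bp, 1.03% and 0.950% at 450 to 1500 bp, and 1.77% and 1.79% above 1500 bp in notch3-/- and notch3+/+ RGs. The 4 exact p-values ranged from 0.60 to 1, and each was 1 after Benjamini-Hochberg adjustment over the 4 shares.

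In adult cells the classes differed in direction. At 450 to 1500 bp the share was 1.49%, 1.38% and 1.33% in qRG libraries, against 1.04% to 1.38% in activated ones, with means of 1.40 ± 0.081% (n = 3) and 1.18 ± 0.114% (n = 6, SD; exact permutation p = 0.071, adjusted over 4 shares 0.29). Only the highest activated library reached the qRG range, and the means were 1.11% in the deeper and 1.25% in the shallower activated libraries. Above 1500 bp the means were 1.53 ± 0.159% in qRGs (n = 3) and 1.66 ± 0.099% in activated cells (n = 6; exact permutation p = 0.14, adjusted 0.29), with 1.67% in the deeper and 1.65% in the shallower 3. None of these differences passed the threshold, nor did the total of 2.97 ± 0.228% against 2.91 ± 0.171% (exact permutation p = 0.64, n = 3 and 6).

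Under 450 bp the comparison depended on the activated libraries used. The share was 0.0466%, 0.0455% and 0.0514% in qRGs, against 0.0458%, 0.0397% and 0.0347% in the deeper activated libraries and 0.0817%, 0.120% and 0.0900% in the shallower ones. The qRG libraries thus lay below the shallower set and overlapped the deeper one, and their mean of 0.0478% did not differ detectably from 0.0687% over all 6 (exact permutation p = 0.45, n = 3 and 6). For the total share, qRGs minus activated cells came to 0.157 percentage points against the deeper 3 and −0.026 points against the shallower 3 (exact permutation p = 0.50 and 0.90, with 3 libraries in each group). The sign of this difference was therefore not stable.

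**Figure D3:**
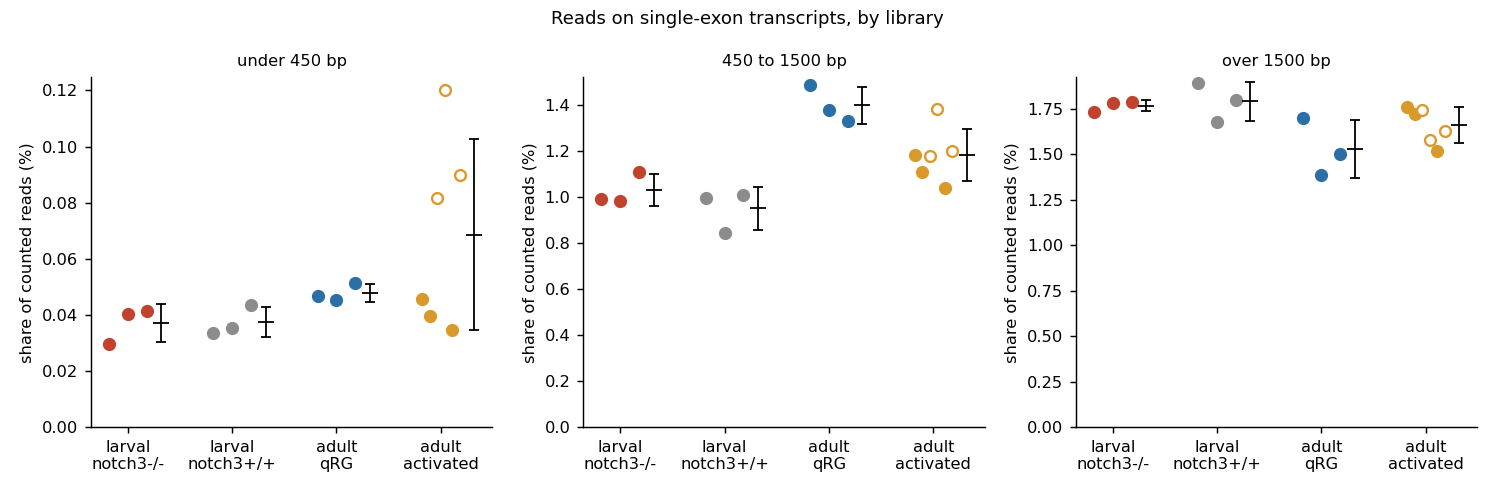
Share of counted reads (y axis, %) that fell on single-exon transcripts of 3 length classes, in each library of the 4 groups. Points are libraries, bars the mean and SD of a group, and open points the activated libraries with under 40000000 reads. Genotypes overlap in each class, and the open points lie highest under 450 bp (0.0817% to 0.120%).

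Between stages, qRGs were compared with larval notch3+/+ RGs, which differ from them in age, tissue, reporter and read length, so that these cannot be told apart. The share at 450 to 1500 bp was 1.40 ± 0.081% in qRGs and 0.950 ± 0.092% in larval RGs (SD, n = 3 each), and all qRG libraries lay above all larval ones (exact permutation p = 0.10, the smallest possible). Under 450 bp, 0.0478 ± 0.0031% in qRGs stood against 0.0376 ± 0.0053% in larval RGs, also without overlap (SD, n = 3 each, exact p = 0.10). Above 1500 bp the order was the opposite, with 1.53 ± 0.159% in qRGs and 1.79 ± 0.107% in larval RGs, and values that overlapped (SD, n = 3 each, exact p = 0.20). A read was found on 70.2 ± 3.45% of all single-exon transcripts in qRGs and on 49.3 ± 7.17% in larval RGs (SD, n = 3 each, no overlap, exact permutation p = 0.10). The qRG libraries were also deeper (45607676 to 49601032 reads, against 17832652 to 33625571). At a common depth of 17000000 reads the ranges were 58.6% to 65.1% and 42.1% to 57.4%. Multi-exon transcripts went the same way, with a read on 96.4 ± 0.722% in qRGs and 89.3 ± 3.39% in larval RGs at full depth (SD, n = 3 each).

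The lists of abundant single-exon transcripts overlapped between stages. Of the 410 at 1 CPM or more in every qRG library and the 369 at that level in every larval notch3+/+ library, 278 were shared (67.8% of the qRG list and 75.3% of the larval list). Of the 501 on either list, all qRG libraries lay above all larval ones for 157 (31.3%, against 27.9% of all transcripts at this level) and below for 152 (30.3%, against 27.0%). The median log2 ratio (0.5 CPM added) was 0.01, as over multi-exon transcripts. A ratio of 4-fold or more in either direction was found for 24.8% of them, against 14.1% of multi-exon transcripts at this level, which are longer and were not chosen for like abundance. This was not tested.

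The most abundant members of each length class were named for their level in qRGs or in larval notch3+/+ RGs, so a high level in that group was favoured by the choice and their difference between stages is a description only. ENSDART00000112495 (chr5:29511198-29512206, minus strand, 1009 bp) was the most abundant single-exon transcript of 450 to 1500 bp in qRGs, with 2263, 2050 and 1902 CPM. It had 16.4, 27.9 and 16.9 CPM in larval notch3+/+ RGs and 20.8, 27.0 and 24.9 CPM in notch3-/- RGs. Its 6 activated libraries held 392 to 1142 CPM (median 570 CPM), below all qRG libraries. It had a log2 fold change of 1.89 (SE 0.67) between qRGs and all activated libraries with an adjusted p of 0.36 in edgeR's quasi-likelihood test. Against the shallower libraries alone it rose (2.99, adjusted p 0.0032), and against the deeper ones it gave 1.28 with an adjusted p of 0.10. For this and the next transcripts, fold changes carry TMM scaling and the printed CPM do not. The TMM factors were higher in the shallower 3 (1.44 to 1.97) than in qRGs (0.71 to 0.92), which raises fold changes against these 3. In that fit 41.5% of all transcripts tested passed the threshold.

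ENSDART00000062702 (chr8:29301377-29302892, minus strand, 1516 bp) led the longest class in qRGs and varied widely among replicates. It had 3459, 1222 and 1457 CPM in qRG libraries and 343 to 1912 CPM in activated ones (median 1061 CPM). Larval notch3+/+ libraries had 5.95, 18.8 and 13.01 CPM, and notch3-/- libraries 8.60, 19.4 and 39.2 CPM. The adult groups overlapped, whereas each adult library lay above each larval one. The log2 fold change was 1.32 (SE 0.72, edgeR adjusted p 0.67) against all activated libraries. It rose against the shallower 3 alone (2.09, adjusted p 0.013), and against the deeper 3 it gave 0.81 with an adjusted p of 0.50.

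The next members were named for their level in larval notch3+/+ RGs. ENSDART00000056286 (chr24:39080413-39081743, minus strand, 1331 bp) held 2984, 2570 and 3554 CPM in notch3-/- RGs and 2928, 2398 and 2953 CPM in notch3+/+ RGs. In qRGs it held 315, 902 and 343 CPM, and in activated libraries 215 to 2551 CPM (median 850 CPM). The genotypes overlapped (log2 fold change 0.09, SE 0.08, edgeR adjusted p 0.94), and each qRG library lay below each larval one. Between qRGs and activated cells its log2 fold change was −0.94 (edgeR adjusted p 0.82), with −1.70 against the deeper and 1.12 against the shallower 3 (adjusted p 0.11 and 0.13). Without TMM, its mean was 520 CPM in qRGs and 441 CPM in the shallower 3.

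ENSDART00000026992 (chr19:29271814-29275074, minus strand, 3261 bp), whose exon overlaps that of another transcript, led the class above 1500 bp in larvae. It had 2692, 1751 and 2447 CPM in notch3-/- RGs and 2993, 2284 and 2623 CPM in notch3+/+ RGs, with overlap (log2 fold change −0.26, SE 0.09, edgeR adjusted p 0.39). It had 447, 685 and 479 CPM in qRGs and 1195 to 2643 CPM in activated libraries (median 1670 CPM), so that each qRG library lay below each activated one. Against all 6 activated libraries the log2 fold change was −1.59 (SE 0.75, edgeR adjusted p 0.58). It fell against the deeper 3 (−2.16, edgeR adjusted p 0.035) and with scaling by library totals (−1.75, adjusted p 0.048), and against the shallower 3 it gave −0.53 with an adjusted p of 0.29.

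The leading member under 450 bp was the same in both stages. ENSDART00000149005 (chr2:57733064-57733441, plus strand, 378 bp) had 64.1, 67.7 and 51.4 CPM in notch3-/- RGs, 66.5, 70.1 and 54.4 CPM in notch3+/+ RGs, 35.5, 33.1 and 47.5 CPM in qRGs and 27.4 to 37.2 CPM in activated libraries (median 32.02 CPM). It was thus steady within groups, and each larval library lay above each adult one. Against all activated libraries its log2 fold change was 0.49 (edgeR adjusted p 0.81). On the TMM scale it rose in qRGs against the shallower 3 alone (1.38, adjusted p 0.0066), and against the deeper 3 it gave −0.03 with an adjusted p of 0.94. Without TMM, its mean was 38.7 CPM in qRGs and 29.2 CPM in the shallower 3. Of the 10 most abundant single-exon transcripts of each group, 10 were shared by the 2 larval genotypes, 5 by qRGs and activated cells, 5 by activated cells and either larval genotype, and 2 by qRGs and either larval genotype.

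To ask which single-exon transcripts depend on Notch3, notch3-/- and notch3+/+ larval RGs were compared with edgeR's quasi-likelihood test across all transcripts, with the replicate number as a block and Benjamini-Hochberg adjustment over all 23056 transcripts tested. Of the 2520, 872 had enough reads to be tested (176 under 450 bp, 416 of 450 to 1500 bp and 280 above 1500 bp). At an adjusted p under 0.05, 1 rose and 0 fell, which is 0.115% of those tested, against 0.455% of all transcripts tested (0.0824% higher and 0.373% lower in notch3-/-). At an unadjusted p under 0.05 there were 31 higher and 33 lower (7.34%, against 7.88% of all transcripts). The Wald test of DESeq2 called 3 higher and 5 lower (278 of all transcripts in both directions). Without the replicate block, edgeR called 0 (and 1 of all transcripts). Without replicates 1, 2 and 3 in turn, it called 10, 0 and 5 (and 325, 48 and 216 of all transcripts).

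The transcript that rose was ENSDART00000115016 (chr5:55103684-55104276, 593 bp), which is named although its groups overlapped, so it was chosen after its values were seen. It had 13.8, 10.05 and 54.0 CPM in notch3-/- replicates 1, 2 and 3, and 1.37, 1.19 and 24.9 CPM in notch3+/+ replicates 1, 2 and 3. Replicate 3 was high in both genotypes, and within each replicate number the notch3-/- library was the higher. Its log2 fold change was 2.41 (SE 0.39, edgeR adjusted p 0.013), and without the replicate block 1.52 with an adjusted p of 0.9999. Without replicate 2 it was 2.13 with an adjusted p of 0.13, and with replicates 1 or 3 left out it stayed past the threshold (1.92 and 3.17). In adult libraries it was low, with 0.141 to 0.658 CPM in qRGs and 0.034 to 2.12 CPM in activated cells.

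The question put to the adult cells was which single-exon transcripts differ between qRGs and activated cells. The activated group also holds neural progenitors, which are not RGs, so quiescence and cell type cannot be told apart here. Of the 2520, 1636 were tested between qRGs and the 6 activated libraries (651 under 450 bp, 663 of 450 to 1500 bp and 322 above 1500 bp), in a fit of edgeR without a block. At an adjusted p under 0.05, 9 rose in qRGs and 0 fell, which is 0.550% of those tested, against 0.553% of all transcripts tested (0.549% higher and 0.00359% lower). The share called was that of the background. Without qRG replicates 1, 2 and 3 in turn, 4, 4 and 3 were called (89, 75 and 70 of all transcripts). Without the first activatedNPC library 16 were called (249 of all transcripts, against 154 in the main fit). At an unadjusted p under 0.05, 58 were higher and 53 lower (6.78%, against 8.65% of all transcripts, 1420 higher and 988 lower). DESeq2 called 13 higher and 4 lower (438 of all transcripts in both directions). With libraries scaled by their totals instead of TMM, edgeR called 6 higher and 4 lower (229 of all transcripts), and 3 of these members were among the 9. That scaling moved the median log2 fold change of all tested transcripts by −0.57, so directions in this comparison are relative to the TMM scale.

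The 9 transcripts had log2 fold changes of 1.81 to 6.37 (median 2.86). All of them lay outside the exons and introns of other annotated transcripts, as did 1273 of the 1636 single-exon transcripts tested. By length, 2 were under 450 bp, 3 were 450 to 1500 bp and 4 were above 1500 bp. Their qRG libraries did not overlap their activated libraries, which a choice by this test favours. Against the deeper activated libraries alone, the 9 all kept their direction and 8 passed the threshold, and against the shallower ones 9 did. Of all transcripts tested, 2.37% passed against the deeper and 41.5% against the shallower ones. Both sets are parts of the data from which the 9 were called, so these fits are not separate support.

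The largest change was that of ENSDART00000074125 (chr8:42369698-42370786, minus strand, 1089 bp), with 11.45, 13.77 and 11.35 CPM in qRGs and 0 to 0.780 CPM in activated libraries (median 0.125 CPM). Its log2 fold change was 6.37 (SE 0.83, edgeR adjusted p 0.0011), with 8.62 against the deeper and 5.51 against the shallower activated libraries. ENSDART00000114915 lies on the same strand of that chromosome (chr8:42525620-42527098, 1479 bp). It had 63.6, 50.9 and 50.8 CPM in qRGs and 0.451 to 2.81 CPM in activated libraries (median 1.23 CPM), a log2 fold change of 5.88 (SE 0.46, edgeR adjusted p 2.8e-05). Both were also expressed in larval RGs. In notch3-/- and notch3+/+ libraries the first had 2.68 to 6.69 and 3.48 to 4.51 CPM, and the second 11.2 to 12.2 and 4.41 to 10.5 CPM, where the genotypes did not overlap but the difference missed the threshold (log2 fold change 0.75, edgeR adjusted p 0.57).

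**Figure D4:**
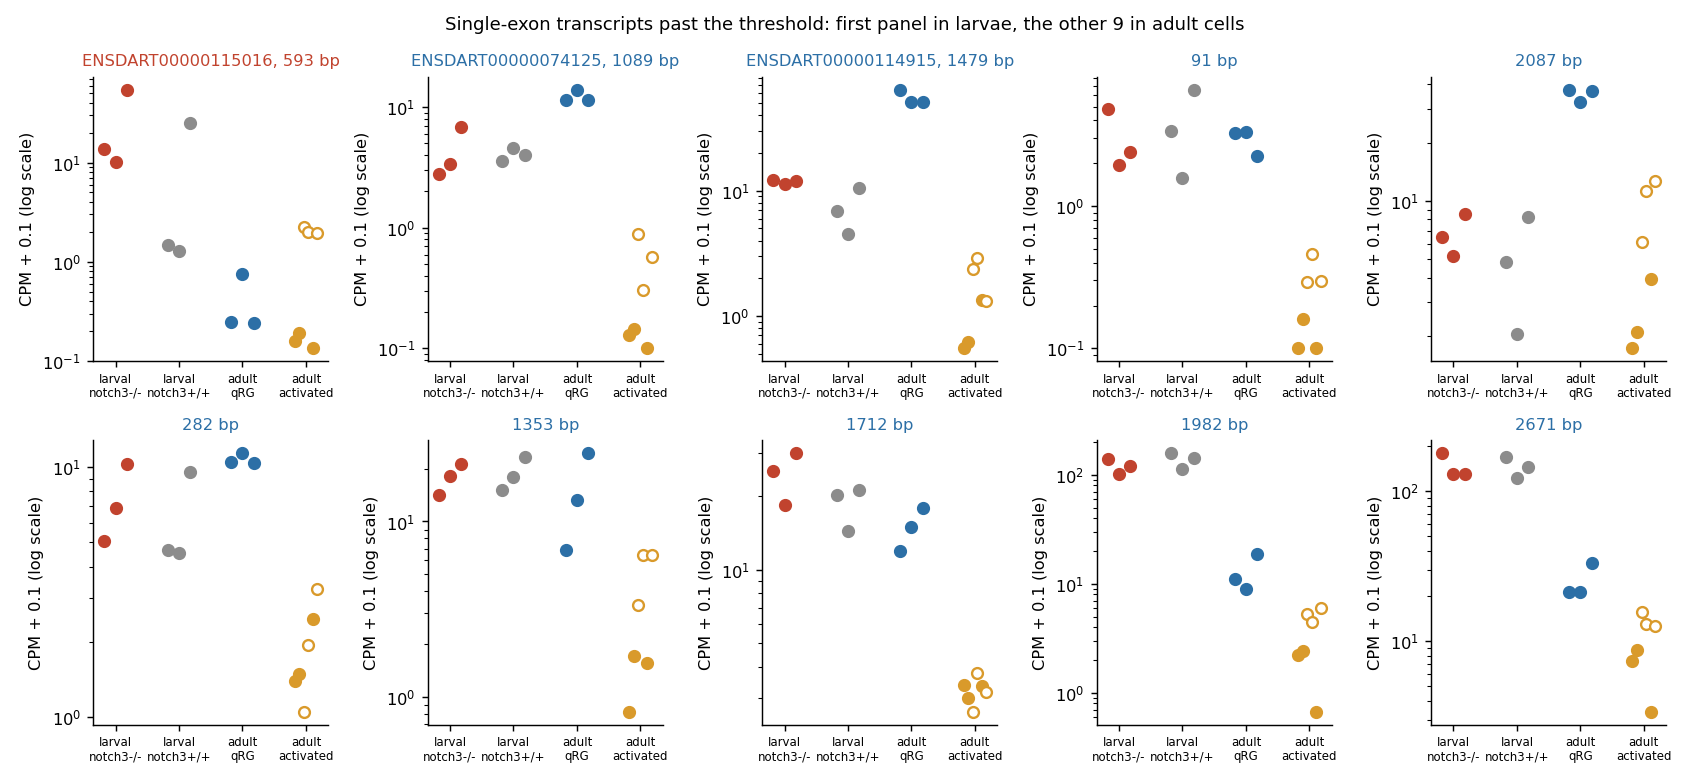
CPM (y axis, 0.1 added, log scale) in each library of the 10 single-exon transcripts past the threshold, 1 in larvae (red title) and 9 in adult cells (blue titles), each titled by its length. Open points are the 3 activated libraries with under 40000000 reads. For the 9, all qRG points lie above all activated points.

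How many more were called depended on the activated libraries. Against the deeper 3, 20 of 1087 single-exon transcripts passed (1.84%, against 2.37% of all transcripts), 12 higher and 8 lower in qRGs. Against the shallower 3, 451 of 1553 passed (29.0%, against 41.5%), 103 higher and 348 lower. For multi-exon transcripts the share of higher calls among the calls was nearer to even in that fit, with 5100 higher and 5683 lower. It differed by length, with 55 higher and 188 lower under 450 bp, 1495 and 2053 at 450 to 1500 bp, and 3550 and 3442 above 1500 bp. Single-exon calls in these classes were 16 higher and 85 lower, 45 and 185, and 42 and 78. The excess of lower calls was thus not particular to single-exon transcripts. Single-exon transcripts are less abundant, and whether their direction there differs from that of transcripts of like abundance was not tested.

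Since abundance and length decide how readily a change is seen, each tested single-exon transcript was set against a multi-exon partner within 0.25 log2 units in both mean log2 CPM and length. Partners were found for 761 of 872 in larvae and for 1230 of 1636 in adults. All those above 450 bp had a partner, but only 65 of 176 (larvae) and 245 of 651 (adults) below, so that the shortest class is represented by its longer members (median 312 and 295 bp).

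In larvae, the medians of single-exon transcripts and partners were both near 0, where TMM scaling centres all transcripts, and their difference was not tested. The median log2 fold change was 0.00 for single-exon transcripts and 0.04 for partners, and the median difference within pairs was −0.03, inside its range over the 3 replicate numbers (−0.13 to 0.03). By class the median difference was 0.09 under 450 bp, −0.11 at 450 to 1500 bp and 0.03 above 1500 bp. Of the 761, 1 single-exon transcript and 1 partner passed the threshold.

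In adults the medians were −0.50 for single-exon transcripts and −0.55 for partners, with a median difference within pairs of 0.03 (−0.07 to 0.06 over the 3 qRG libraries). By class it was 0.10 under 450 bp, 0.004 at 450 to 1500 bp and 0.02 above 1500 bp. Among the 1230 pairs, 8 single-exon transcripts and 4 partners passed the threshold, all higher in qRGs. The lower median of single-exon transcripts over all those tested (−0.50, against −0.25 for multi-exon transcripts) was close to the median of these partners.

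The spread between replicates was larger for single-exon transcripts than for partners in both larval genotypes and in qRGs, over all pairs. In larval notch3+/+ RGs, the median SD of log2 CPM over the 3 replicates was 0.819 for single-exon transcripts and 0.728 for partners, with a median difference within pairs of 0.050. In notch3-/- RGs the medians were 0.795 and 0.710 (difference 0.062), and in qRGs 0.764 and 0.669 (difference 0.055). Over the 6 activated libraries the medians were 1.36 and 1.35 (difference −0.0016). These libraries pool both activated cell types and the deeper and shallower sets, so their SD is not a spread between replicates alone. Under 450 bp the difference was −0.016 in notch3-/- RGs, −0.024 in notch3+/+ RGs, 0.034 in qRGs and −0.132 in activated libraries, so the larger spread was not found in that class except in qRGs. None of these differences was tested. In notch3+/+ RGs, without replicate 1, the median difference was −0.005, so it was not stable there.

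**Figure D5:**
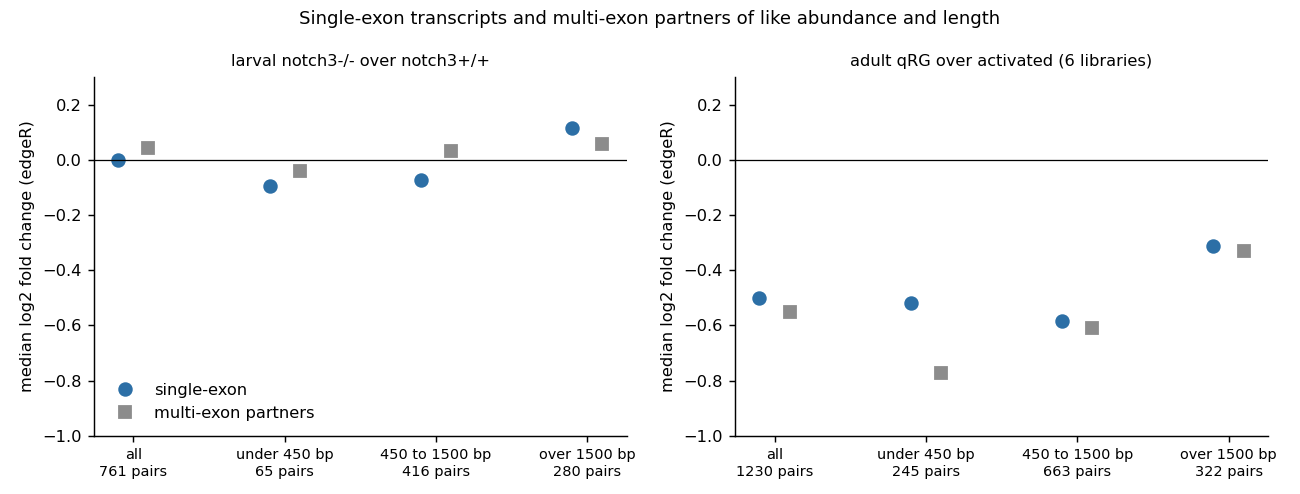
Median log2 fold change (y axis) of single-exon transcripts (circles) and their multi-exon partners of like abundance and length (squares), over all pairs and by length class, in larvae (left) and adults (right). The medians over all pairs are 0.00 and 0.04 in larvae, and −0.50 and −0.55 in adults.

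Single-exon transcripts lay in 4 kinds of place. Most, 1857 (73.7%), lay outside other annotated transcripts, 362 (14.4%) lay in an intron of a multi-exon transcript on the same strand and 168 (6.67%) in an intron on the opposite strand. The exon of 133 (5.28%) overlapped that of another transcript. Intronic positions were concentrated in the shortest class, of which 23.3% lay in an intron on the same strand and 7.71% in one on the opposite strand. At 450 to 1500 bp these shares were 1.55% and 4.51%.

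Levels differed with place. Reads from an unspliced host transcript cannot be told apart from those of a single-exon transcript within it on the same strand. The counting did not use strand, so the same holds for those on the opposite strand. Under 450 bp, members in an intron on the same strand had a median of 0.502 CPM per kb in notch3-/- RGs, 0.484 in notch3+/+ RGs and 1.09 in qRGs. Members in an intron on the opposite strand had 0, 0 and 0.247 CPM per kb in these groups. Those on the strand of their host were thus the higher in each group. In the activated libraries the values were 2.91 for the same and 1.15 CPM per kb for the opposite strand, with 0.630 and 0.094 CPM per kb in the deeper 3 and 4.81 and 1.94 CPM per kb in the shallower 3. Hosts differed too, with medians over same-strand members of 16.8 CPM per kb in notch3-/- RGs, 16.9 in notch3+/+ RGs and 17.03 in qRGs, and over opposite-strand members of 3.07, 2.81 and 3.36 CPM per kb.

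Members in an intron on the same strand were mostly well below their host. Where both had reads, a same-strand member had a median of 0.058 times its host's level per length in qRGs (325 members), 0.033 times in the deeper and 0.188 times in the shallower activated libraries. In larval RGs it was 0.043 times in notch3-/- and 0.041 times in notch3+/+. For opposite-strand members, whose hosts were lower, the median was 0.447 times the host's level in notch3-/- RGs, 0.555 in notch3+/+ RGs, 0.334 in qRGs, 0.272 in the deeper and 0.615 in the shallower activated libraries. A level above that of the host was found for 27 of 362 same-strand members in qRGs and for 42 of 168 opposite-strand members. Across same-strand members with reads in both, the level of member and host had a Spearman's rho of 0.42 in qRGs, 0.23 in notch3-/- RGs and 0.28 in notch3+/+ RGs. Across opposite-strand members it was 0.05, 0.14 and 0.04 in these groups. These are descriptions over transcripts that share libraries and, in part, hosts (362 members in 224 hosts), without a test.

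Single-exon transcripts also lay in runs. With neighbours no more than 10000 bp apart, 1290 (51.2%) belonged to 269 runs of at least 2 members, and 262 (10.4%) to 5 runs of at least 20. Their share of the annotated transcripts of a chromosome was highest on chromosomes 10 (16.6%), 5 (16.4%) and 14 (15.5%) and lowest on the part of chromosome 4 included here (4.33%).

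The largest run held 134 transcripts of 116 bp each, all on the minus strand of chr5:44738753-44904548. Each of them had a read in at least 1 library, and their counts summed to 3.69 ± 2.81 CPM in notch3-/- RGs, 4.23 ± 4.45 CPM in notch3+/+ RGs and 8.14 ± 2.45 CPM in qRGs (SD, n = 3 each). Activated libraries summed to 3.44 ± 1.84 CPM in the deeper 3 and 46.3 ± 15.0 CPM in the shallower 3 (SD, n = 3 each). A run of 33 transcripts with a median length of 1014 bp (chr10:41834477-41978878) had a like contrast between the sets of activated libraries. It held 3.41 ± 1.73 CPM in the deeper and 45.4 ± 15.2 CPM in the shallower ones (SD, n = 3 each). It held 8.80 ± 6.49 CPM in qRGs, 8.27 ± 2.41 CPM in notch3-/- and 14.7 ± 4.06 CPM in notch3+/+ RGs (SD, n = 3 each). Unlike in the first run, the notch3+/+ mean lay above the qRG mean. Both runs were highest in the shallower activated libraries. So was the median over all single-exon transcripts, with 3.00 CPM per kb against 0.217 in the deeper ones, so this contrast is not particular to these runs.

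A run of 25 transcripts with a median length of 399 bp on chr25:36163145-36218174 had a smaller ratio between the sets of activated libraries. It held 16.1 ± 0.53 CPM in qRGs, 18.2 ± 9.86 CPM in the deeper and 45.8 ± 3.46 CPM in the shallower activated libraries, 12.8 ± 11.1 CPM in notch3-/- RGs and 8.30 ± 0.85 CPM in notch3+/+ RGs (SD, n = 3 each). A run of 15 transcripts of 2376 to 2445 bp, all on the plus strand of chr14:2823189-2900462, held 6.41 ± 3.54 CPM in qRGs, 5.06 ± 0.30 CPM in the deeper and 31.9 ± 11.8 CPM in the shallower activated libraries, 10.9 ± 6.72 CPM in notch3-/- RGs and 7.58 ± 2.91 CPM in notch3+/+ RGs. No test was made on the sums of these runs.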

How the data were processed

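RNA sequencing of 15 libraries gave 2 tables (6 larval and 9 adult libraries) of raw counts per Ensembl transcript. Per the labels and methods, the authors aligned reads to Zv9 with TopHat2 and excluded multiply aligned reads. Larval reads were longer than adult reads. The deposited counts are not normalized. The methods name HTSeq for counting, whereas the file headers name featureCounts 1.5.0 with no option for strand or read pairs. Exon numbers, positions and lengths come from the deposited annotation. No transcript identifier matched the gene name tables, so marker and pathway lists were not run.

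Counts were tested in R 4.3.3 with edgeR 4.0.16 (quasi-likelihood test, TMM, filterByExpr, Benjamini-Hochberg adjustment at 0.05), checked on simulated data, with DESeq2 1.42.0 as an alternative. The changes simulated for adult cells were larger than most of those called there, and the split among activated libraries was not simulated. That check therefore does not cover smaller adult changes. Larval fits had the replicate number as a block. The numbers come from the labels, and deviations of same-numbered libraries from their genotype means correlated (0.23, 0.26 and 0.32). SEs were derived from the F statistics. CPM printed for a library is its count per 1000000 counted reads, without TMM, and log2 CPM in partners has TMM and a prior count of 2. Each share was tested by exact permutation of libraries with scipy 1.17.1. The permutation and sign-flip tests over libraries take these as independent, although the 9 adult libraries came from 3 experiments and same-numbered larval libraries correlated. Only the sign-flip test within replicate numbers takes the larval numbers as pairs. Intervals for single shares are not given because reads of PCR libraries are not independent molecules. Partners were assigned without replacement in identifier order. Named transcripts were the 2 largest changes per direction among those called, without overlap between groups and with an average abundance of 1 log2 CPM or above, and the most abundant of each length class in larval notch3+/+ RGs and qRGs. Members and lists were chosen with earlier results of these data known. Other normalizations, filters, tests, partner limits and left-out libraries were tried.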

Additional observations from a re-analysis of the deposited data

Results flagged for a closer look

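Of 15 values examined among the 6 activated libraries (shares of reads, shares of transcripts with a read, and levels of named transcripts), 1 had a library far from the other 5. The level of ENSDART00000056286 was 2551 CPM in the library of the second column named activatedNPC, against 215 to 981 CPM in the other 5 activated libraries. Its gap to the nearest of them exceeded Dixon's critical value (0.625 of the range for 6 samples), which chance alone passes in about 1 of 20 groups.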

How the results depend on the processing

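Counts of single-exon transcripts past the threshold were the values that depended most on the processing. Counts over all transcripts, given here in brackets, changed with the processing too. In larvae, edgeR with the replicate block called 1 (105), and DESeq2 called 8 (278). The fit of all transcripts with at least 10 counts called 3 (246), and the fit of all with any count 8 (382). An adjusted p under 0.01 left 0 (36). Without the replicate block 0 were called (1), and without each replicate in turn 0 to 10 (48 to 325). Each other larval fit that made a call included ENSDART00000115016. In adults, where 9 (154) were called, DESeq2 called 17 (438) and an adjusted p under 0.01 left 4 (79). Leaving out 1 library gave 3 to 16 (70 to 249). The lowest counts, 4, 4 and 3, came without qRG replicates 1, 2 and 3, and the highest without the first activatedNPC column. The sets of activated libraries were also taken apart, a choice made after seeing the data. Against the deeper set 20 (600) were called, and against the shallower set 451 (11465). A replicate block by the numbers in the adult column names gave 8 (157). Deviations of same-numbered adult libraries correlated at −0.12 to 0.21, so these numbers are not taken as pairs.

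The difference in share between notch3-/- and notch3+/+ RGs, 0.055 percentage points, was −0.479 when transcripts with 1 exon of chromosome 4 from 28000000 on and of the mitochondrial genome were included, and −0.041 to 0.168 without each replicate. As a mean within the replicate pairing it stayed 0.055. Between qRGs and activated cells, 0.066 points became 0.557 (exact permutation p = 0.024) when those transcripts were included, −0.026 with the shallower activated libraries alone, and −0.064 to 0.149 without each library. The median pair difference in log2 fold change ranged from −0.094 to 0.059 in larvae without each replicate, and was 0.011 instead of −0.030 for transcripts with a mean log2 CPM of at least 1, a change of sign within the spread between replicates. In adults it was −0.054 for transcripts with a mean log2 CPM of at least 1, 0.096 with the shallower activated libraries, and 0.028 to 0.072 without each library. The pair difference in replicate SD was −0.0054 to 0.045 without each notch3+/+ replicate. The causes were not tested. The other alternatives tried kept the direction of shares and pair differences, and no share difference passed the threshold under them. Low counts limit the shortest class, of which 176 of 1478 could be tested in larvae.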
